A study of Arabidopsis thaliana with 30 samples.

Results

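Seedlings of the *Arabidopsis thaliana* line *dxo1*/*cDXO1* were compared with wild-type (WT) seedlings after treatment with the stress hormone abscisic acid (ABA). The comparison rested on 6 of the 30 RNA-seq libraries in the series, 3 of each genotype, picked by the genotype and treatment in their labels. WT was Col-0, and *dxo1*/*cDXO1* was the *dxo1* mutant, a T-DNA insertion allele, carrying a transgene under the *DXO1* promoter that encodes the C-terminal catalytic part of DXO1 and lacks the N-terminal extension (NTE). All 6 libraries came from whole seedlings grown for 5 days on sucrose plates and then kept for 3 h in liquid medium with 50 µM ABA. The labels give a genotype but no number for the transgenic line, so they do not tell whether the 3 *dxo1*/*cDXO1* libraries are 1 line or several. Groups used beside these were the mock libraries of both genotypes (liquid medium without ABA), the parent mutant *dxo1*, the cap methyltransferase mutant *rnmt1‐3*, and *dxo1*/*NTE*, which expresses the N-terminal extension alone, each with 3 libraries per treatment.

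Nuclear transcripts of plants receive a methylated guanosine cap (m7G) at the 5′ end, which RNMT1 completes by methylating the guanosine and which cap-binding proteins read during export and translation. DXO1 is a decapping enzyme that removes NAD caps through its catalytic domain, while its plant-specific N-terminal extension promotes the methylation by RNMT1. ABA is perceived by the PYR/PYL receptors, which on binding it inhibit the clade A type 2C protein phosphatases (PP2Cs). SnRK2 kinases are then free to phosphorylate bZIP transcription factors of the ABF family, which bind promoters at the ABA-responsive element, whose core reads ACGTG.

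The 3 WT libraries held 18715130 to 19634514 counts and the 3 *dxo1*/*cDXO1* libraries 19733182 to 20994889. Across genes, which are not independent replicates, replicates correlated with Pearson's r of 0.985 to 0.989 in WT and 0.990 to 0.991 in *dxo1*/*cDXO1* (log2 CPM). Levels are given as CPM, the usual scaling of counts to library size, with TMM factors (an edgeR method that corrects library totals for composition), and differences as log2 fold changes of *dxo1*/*cDXO1* against WT with their standard error (SE) and the p-value of edgeR's quasi-likelihood test, adjusted by Benjamini-Hochberg over all tested genes. A gene is said to have risen or fallen where that adjusted p was below 0.05. The study calls its replicates biological, but no label says whether they were separate sowings. The p-values therefore measure the spread between these libraries, part of which may be technical. WT replicate 1 after ABA stood apart from replicates 2 and 3 for several gene groups below, and WT mock replicate 1 stood apart under mock. Values without these libraries stand beside several of the results they touch, but not beside the log2 responses to ABA.

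*DXO1* (AT4G17620) itself was read at 40.8, 45.3 and 39.1 CPM in WT and 243, 249 and 288 CPM in *dxo1*/*cDXO1*. The groups did not overlap, and the log2 fold change was 2.65 ± 0.08 (edgeR, adjusted p = 2.84e-10). Against the parent mutant, at 18.6 ± 1.49 CPM (SD), it was 3.81 ± 0.07 (edgeR, adjusted p = 9.52e-18), so the label of a line carrying a *DXO1* transgene holds in each library. Reads of the transgene and of the native locus cannot be told apart in gene-level counts. *RNMT1* (AT3G20650), which encodes the cap methyltransferase, stood at 18.5, 15.9 and 17.2 CPM in WT and 15.7, 16.2 and 15.5 CPM in *dxo1*/*cDXO1*. These values overlap (log2 fold change -0.11 ± 0.10, edgeR adjusted p = 0.37).

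Neighbours of *DXO1* on chromosome 4 were higher as well. In the TAIR10.1 annotation *DXO1* spans chr4:9821874-9825039 on the plus strand. AT4G17616, a gene for a pentatricopeptide repeat protein, an organelle RNA-binding class, lies upstream at chr4:9819340-9821730 and ends 143 bases before it. It was read at 12.3, 13.5 and 12.3 CPM in WT and 65.3, 68.6 and 78.5 CPM in *dxo1*/*cDXO1*, with no overlap (log2 fold change 2.49 ± 0.09, edgeR adjusted p = 5.77e-10). *CKB2*, for a regulatory subunit of casein kinase 2, starts 105 bases downstream at chr4:9825145-9827357 and stood at 57.3, 46.3 and 50.5 CPM in WT and 87.7, 81.7 and 105 CPM in *dxo1*/*cDXO1*, again without overlap (log2 fold change 0.84 ± 0.10, edgeR adjusted p = 1.39e-05). The mutant *dxo1* without a transgene had 10.8 ± 0.342 CPM of AT4G17616 and 47.4 ± 2.66 CPM of *CKB2* (SD), whereas *dxo1*/*NTE*, whose transgene was made with the same upstream stretch, had 86.5 ± 9.53 and 85.0 ± 17.9 CPM. *CBL1*, the next gene upstream, coding for a calcium sensor, showed no such difference (log2 fold change 0.06 ± 0.15, edgeR adjusted p = 0.758). Whether the reads of both neighbours came from the transgene insert or from the native locus cannot be told apart.

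**Figure D1:**
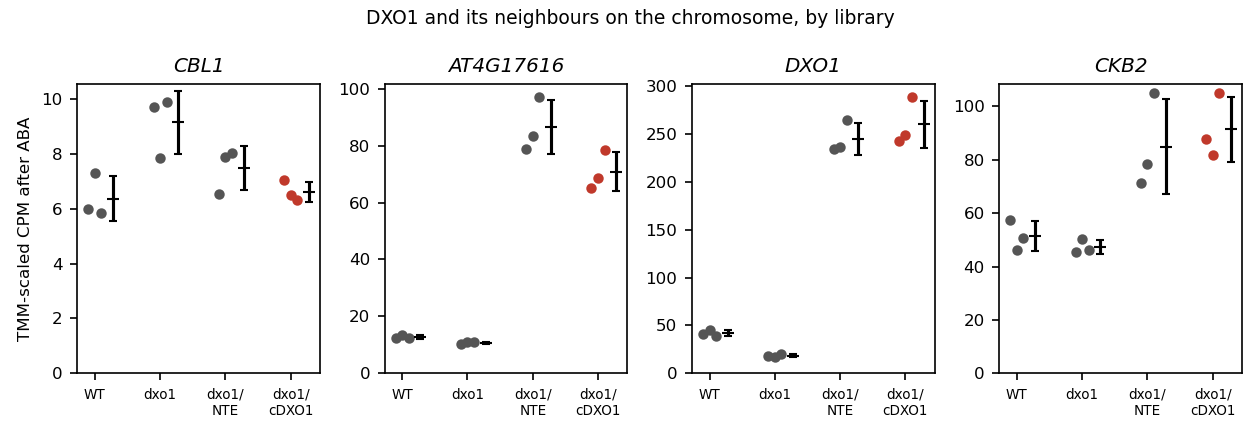
Levels of *CBL1*, AT4G17616, *DXO1* and *CKB2*, in their order along the chromosome, in TMM-scaled CPM after ABA, with 1 point per library and the mean ± SD of 3 libraries as bars. AT4G17616 lies at 65.3 to 97.1 CPM in the libraries of *dxo1*/*cDXO1* and *dxo1*/*NTE*, against 10.4 to 13.5 CPM in those of WT and *dxo1*.

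Of 20036 genes tested, 4724 (23.6%) were higher and 4366 (21.8%) lower in *dxo1*/*cDXO1* than in WT after ABA, 45.4% in either direction. Differences over 2-fold were fewer, 967 higher (4.83%) and 587 lower (2.93%), together 7.76%. Libraries of the 2 groups did not overlap in CPM for 54.5% of all tested genes, 27.3% with *dxo1*/*cDXO1* higher and 27.2% with it lower. These shares are the background for every count of a gene group against WT after ABA below. Under mock, with all libraries, 12.1% of 19941 tested genes were higher and 11.4% lower. Without WT mock replicate 1 the mock calls were 4180 higher and 3940 lower of 20243 genes, the background for counts given without that library. Scaling moved the balance of the calls: with library totals in place of TMM the median log2 fold change of all genes moved from -0.01 to -0.13, and the calls were 3554 higher and 6347 lower, 35.9% higher against 52.0% with TMM. The median gene length was 1374 bases in genes over 2-fold higher, 1554 in genes over 2-fold lower and 1776 over all tested genes.

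Among genes of the cap machinery the cap-binding gene *EIF4E* rose over 2-fold, as did *DXO1*, which the line carries as a transgene by design. Of 19 genes for capping, cap binding, decapping and 5′-to-3′ decay, 6 rose, 2 fell and 11 did not pass (4 rose and 6 fell with library totals). The 6 include *DXO1*, and over all tested genes 23.6% rose and 21.8% fell. *EIF4E* (AT4G18040), the main cap-binding translation initiation factor, stood at 66.9, 65.1 and 65.3 CPM in WT and 167, 161 and 151 CPM in *dxo1*/*cDXO1*, without overlap (log2 fold change 1.29 ± 0.06, edgeR adjusted p = 7.28e-09). *CBP20*, a subunit of the nuclear cap-binding complex, rose by 0.59 on the log2 scale, *NUDX7* by 0.47, *NUDX19* by 0.32 and *EIF(ISO)4E* by 0.24. The Nudix hydrolase *NUDX1* fell by 0.25 and the decapping activator *DCP5* by 0.18, 2 calls that were lost in 8 and 6 of the alternative settings. Genes for the decapping enzyme *DCP2* (log2 fold change 0.18), its partner *DCP1* (0.00) and the exonuclease *XRN4* (-0.15) did not pass.

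The ABA receptor genes rose. Of 14 genes of the PYR/PYL family, 9 passed the filter on low counts, and 5 of these rose, each more than 2-fold, while 4 did not pass the test (*PYL2*, *PYL7*, *PYL8* and *PYL9*). All 5 are genes that ABA itself lowered in both genotypes. *PYR1* (AT4G17870) stood at 37.1, 32.6 and 39.3 CPM in WT and 109.8, 106 and 105 CPM in *dxo1*/*cDXO1* after ABA. *PYL1* (AT5G46790) was read at 11.4, 10.4 and 9.89 CPM in WT and 33.4, 34.3 and 32.5 CPM in *dxo1*/*cDXO1*. In neither gene did the groups overlap, and the log2 fold changes were 1.56 ± 0.08 and 1.67 ± 0.09 (edgeR, adjusted p = 6.2e-09 and 1.42e-08). *PYL4* (AT2G38310) was at 3.69, 2.87 and 3.91 CPM in WT and 13.8, 13.9 and 11.0 CPM in *dxo1*/*cDXO1*. *PYL5* (AT5G05440) was at 11.6, 7.91 and 10.04 CPM in WT and 22.8, 22.4 and 24.7 CPM in *dxo1*/*cDXO1*. Every *dxo1*/*cDXO1* library again lay above every WT library, by log2 fold changes of 1.90 ± 0.16 and 1.25 ± 0.12 (edgeR, adjusted p = 8.28e-07 and 3.19e-06). *PYL6* (AT2G40330) was close to silent in WT after ABA, with 4 counts over the 3 WT libraries against 55 over the 3 *dxo1*/*cDXO1* libraries, a ratio of scaled counts of 13.9 (exact binomial 95% interval 5.12 to 52.7, which covers counting error only).

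Under mock the same receptor genes stood closer together. *PYR1* had 162 ± 26.1 CPM in WT and 208 ± 15.6 in *dxo1*/*cDXO1* (log2 fold change 0.37 ± 0.14), *PYL5* 107 ± 6.73 and 119 ± 5.97 (0.17 ± 0.09), and *PYL6* 47.2 ± 1.83 and 46.2 ± 5.57 (-0.02 ± 0.11), means ± SD of 3 libraries. None of these 3 passed the mock test, while *PYL1* (0.91 ± 0.23) and *PYL4* (0.79 ± 0.12) did. Without WT mock replicate 1, 4 of 9 receptor genes were higher and 2 lower under mock, against 2 and 1 with it. The difference between the ABA and the mock contrast, the interaction, was 1.16 for *PYR1*, 1.08 for *PYL4*, 1.06 for *PYL5* and 3.67 for *PYL6* on the log2 scale (edgeR, adjusted p = 0.00761, 0.0276, 0.00789 and 0.00103), where 0.233% of all genes passed this test. In WT the log2 response to ABA was -2.13 for *PYR1*, -5.36 for *PYL4* and -3.41 for *PYL5* on the log2 scale, and in *dxo1*/*cDXO1* it was -0.96, -4.28 and -2.36. The *PYL4* interaction was lost in 10 of the alternative settings, with an adjusted p of up to 0.114 (edgeR).

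Phosphatases, the targets of the receptors, were lower. Of 8 tested clade A PP2C genes 7 fell, by less than 2-fold each, and none rose (median log2 fold change -0.56, against -0.01 over all genes). *ABI1* (AT4G26080) stood at 584, 558 and 606 CPM in WT and 344, 379 and 383 CPM in *dxo1*/*cDXO1*. *PP2CA* (AT3G11410) stood at 448, 445 and 469.7 CPM in WT and 298, 313 and 317 CPM in *dxo1*/*cDXO1*. Neither pair of groups overlapped, with log2 fold changes of -0.65 ± 0.07 and -0.55 ± 0.06 (edgeR, adjusted p = 6.28e-06 and 1.32e-05). *HAB1* fell by 0.59, *HAI1* by 0.58, *HAI3* by 0.58, *HAI2* by 0.51 and *HAB2* by 0.23 on the log2 scale, the call for *HAB2* being lost without *dxo1*/*cDXO1* replicate 1 or 2 and with all 30 libraries in 1 fit. *ABI2* was at 120.3, 112 and 129 CPM in WT and 102, 110.1 and 112 CPM in *dxo1*/*cDXO1*, overlapping by the highest *dxo1*/*cDXO1* and the lowest WT library (-0.15 ± 0.07, edgeR adjusted p = 0.102). Under mock 1 of 6 tested members was called, *HAB2*, also lower, where 11.4% of all genes were lower. The interaction test passed in 0 of the 8 genes.

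**Figure D2:**
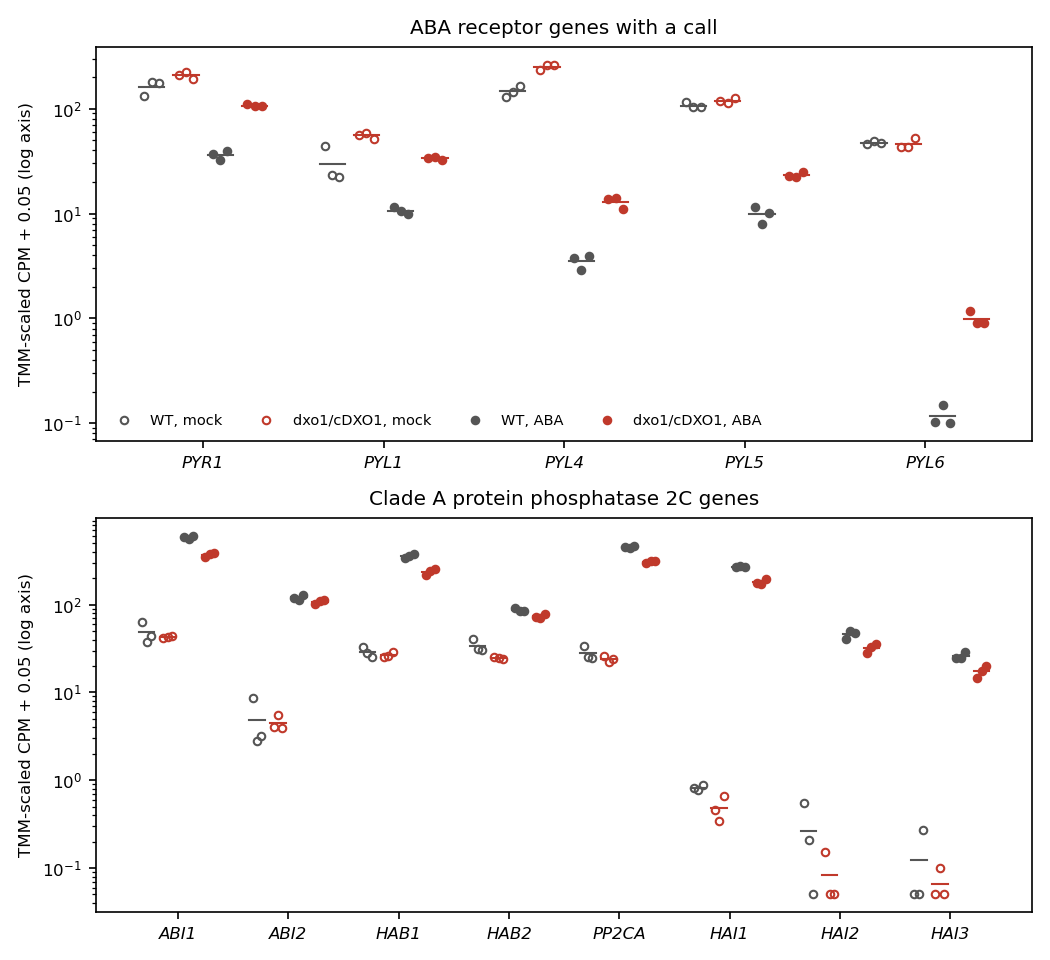
Levels of the 5 called ABA receptor genes (upper panel) and of 8 clade A PP2C genes (lower panel) in TMM-scaled CPM + 0.05 on a log axis, 1 point per library and a line at the mean of 3, for WT (grey) and *dxo1*/*cDXO1* (red) under mock (open) and after ABA (filled). ABA lowered the receptors and raised the phosphatases in both genotypes, and after ABA all *dxo1*/*cDXO1* libraries lie above WT for the receptors and below WT for 7 phosphatases, *ABI2* being the exception.

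Most genes for the kinases below the phosphatases did not pass. Of 10 *SnRK2* genes 3 fell, where 21.8% of all genes were lower, and 7 did not pass. Those that fell were *SNRK2.7* by 0.85, *SNRK2.2* by 0.42 and *SNRK2.4* by 0.21 on the log2 scale (6 fell with library totals). *SNRK2.2*, 1 of the ABA-activated kinases, was read at 146, 123.3 and 125 CPM in WT and 96.9, 101 and 96.6 CPM in *dxo1*/*cDXO1*, without overlap (edgeR, adjusted p = 0.000458). *OST1* (*SNRK2.6*), the guard cell kinase of the same subclass, did not pass, at 22.1, 22.8 and 25.1 CPM in WT and 21.2, 24.7 and 21.9 CPM in *dxo1*/*cDXO1*. The *SNRK2.4* call was lost without WT replicate 1 or 3 or any single *dxo1*/*cDXO1* library. In the mitogen-activated protein kinase cascade that ABA turns on through transcription of its upper kinases, 4 of 7 genes fell. *MAPKKK18* (AT1G05100) stood at 40.2, 45.2 and 50.8 CPM in WT and 18.23, 21.0 and 21.5 CPM in *dxo1*/*cDXO1*. *MAPKKK17* (AT2G32510) stood at 36.6, 33.9 and 37.7 CPM in WT and 16.1, 19 and 20.3 CPM in *dxo1*/*cDXO1*. The WT libraries of both were higher in all 3 replicates, with log2 fold changes of -1.16 ± 0.10 and -0.96 ± 0.10 (edgeR, adjusted p = 8.23e-07 and 3.27e-06). *MPK7* fell by 0.51 and *MPK2* by 0.39, while *MPK1* (-0.30), *MKK3* (0.06) and *MPK14* (0.92) did not pass.

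Of 18 tested transcription factor genes of the ABA response 9 fell, 2 rose and 7 did not pass. *NAC019* (AT1G52890), which codes for a stress-induced NAC factor, stood at 71.2, 75.4 and 82.1 CPM in WT and 19.4, 20.2 and 20.4 CPM in *dxo1*/*cDXO1*. These libraries lay far apart, with a log2 fold change of -1.92 ± 0.08 (edgeR, adjusted p = 1.44e-09). Under mock it was -0.67 ± 0.43, with a larger SE, and did not pass. The interaction test passed in 0 of the 18 genes, *NAC019* included, so the ABA and mock differences were not shown to be unlike. The homeodomain gene *HB-12* (AT3G61890) fell to 34.6, 37.5 and 34.0 CPM from 64.2, 77.9 and 77.5 CPM (-1.04 ± 0.09, edgeR adjusted p = 5.47e-07). *NAC055* fell by 0.78, *GBF3* by 0.71, *RD26* by 0.46, *ABF3* by 0.30 and *ABF4* by 0.29, the last 2 being among the bZIP factors that SnRK2 kinases activate. *ABF2* (-0.15) and *ABF1* (0.07) of the same family did not pass, and neither did *ABI5* (-0.04). *MYB44*, the regulator of stomatal closure named *MYBR1* in the annotation, rose to 423, 430.3 and 431 CPM from 202, 220.3 and 228 CPM (0.99 ± 0.07, edgeR adjusted p = 1.06e-07), and *RAV1*, a B3-domain repressor in ABA signalling, rose by 0.86 ± 0.09.

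Among the dehydration genes, the classical readouts of ABA, 15 of 25 fell and 1 rose (median log2 fold change -0.35). *RD20* (AT2G33380), a caleosin of lipid bodies, stood at 36.4, 46.7 and 47.3 CPM in WT and 4.66, 6.30 and 4.97 CPM in *dxo1*/*cDXO1*. *ERD1* (AT5G51070), a chloroplast Clp protease ATPase, was at 414, 319 and 356 CPM in WT and 138, 142 and 154 CPM in *dxo1*/*cDXO1*. Neither gene overlapped between the groups, and the log2 fold changes were -3.03 ± 0.13 and -1.32 ± 0.09 (edgeR, adjusted p = 3.34e-09 and 1.05e-07). *ALDH7B4*, an aldehyde dehydrogenase, fell by 1.22, *COR15B* by 1.05, the late embryogenesis abundant gene *LEA4-5* by 0.83 and *P5CS1*, which catalyses the committed step of proline synthesis, by 0.64. *RAB18* fell by 0.35 and *LTI65* (*RD29B*) by 0.32. The strongest ABA marker by level did not follow: *RD29A* (*LTI78*) was at 2208, 2117 and 2232 CPM in WT and 2191, 2327 and 2361 CPM in *dxo1*/*cDXO1*, with overlapping groups (0.08 ± 0.07, edgeR adjusted p = 0.401). *COR15A*, the paralog of *COR15B*, rose by 0.46 ± 0.15, a call lost without WT replicate 2, without *dxo1*/*cDXO1* replicate 2, with library totals and with all 30 libraries in 1 fit. The counts were 17 falling and 1 rising without WT replicate 1, 20 and 0 with library totals, and 10 and 0 with all 30 libraries in 1 fit. Under mock 6 of 20 tested members were lower and 1 higher (4 higher without WT mock replicate 1). The interaction test passed in 0 of the 25 genes.

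Genes of ABA synthesis were called in both directions. *AAO3* (AT2G27150), the oxidase of the last step of ABA synthesis, stood at 86.3, 74.6 and 82.6 CPM in WT and 42.2, 42.2 and 35.4 CPM in *dxo1*/*cDXO1*, with no overlap (-1.01 ± 0.08, edgeR adjusted p = 6.64e-07). The epoxidase gene *ABA1*, at the entry of the pathway, rose by 0.63 ± 0.11 and *ABA4* fell by 0.46, while *NCED3*, the dehydration-induced dioxygenase, did not pass (0.03). In breakdown and transport 1 of 12 genes rose and 3 fell (1 and 7 with library totals). *UGT71C5*, which glucosylates ABA, rose by 0.76 ± 0.12, *BGLU18*, which frees it from its glucose ester, fell by 0.67, and the ABA hydroxylase *CYP707A4* fell by 1.07, whereas *CYP707A1*, *CYP707A2* and *CYP707A3* did not pass. Seed genes were near the limit of detection, with 5 of 18 passing the filter. *DOG1* (AT5G45830), the seed dormancy gene, was at 1.07, 0.504 and 0.791 CPM in WT and 3.09, 2.19 and 2.64 CPM in *dxo1*/*cDXO1*, apart in all libraries (1.75 ± 0.33, edgeR adjusted p = 0.00066), and *SESA2*, a seed storage albumin, had 1 count over the WT libraries and 43 over the *dxo1*/*cDXO1* libraries (ratio of scaled counts 43.4, exact binomial 95% interval 7.39 to 1754). The summed level of 11 seed and embryo markers was 2.07 to 2.68 CPM in WT and 4.46 to 5.27 CPM in *dxo1*/*cDXO1*, with *CRU3* and *SESA3* at 0, and their part in these results was not tested. Fewer cells of a type and less RNA per cell cannot be told apart in whole seedlings.

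ABA-regulated genes as a whole were defined without any library of WT or *dxo1*/*cDXO1*, as the genes with adjusted p below 0.05 and over 2-fold change between ABA and mock in *dxo1*/*NTE*. Of 1045 induced genes 411 (39.3%) were lower and 126 (12.1%) higher in *dxo1*/*cDXO1* than in WT after ABA, with a median log2 fold change of -0.21, against 21.8% lower and 23.6% higher over all tested genes. Under mock the median of the same genes was 0.01, with 105 lower and 120 higher of 881 tested. The median log2 response of these genes to ABA was 1.73 in WT and 1.39 in *dxo1*/*cDXO1*. Among 516 repressed genes 109 (21.1%) were higher and 80 (15.5%) lower, with a median of 0.05 and a median response of -1.22 in WT and -1.15 in *dxo1*/*cDXO1*. Differences over 2-fold in the repressed genes were 62 higher and 31 lower. The medians were -0.32 (induced) and -0.07 (repressed) with library totals, so that the sign of the second depends on the scaling.

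**Figure D3:**
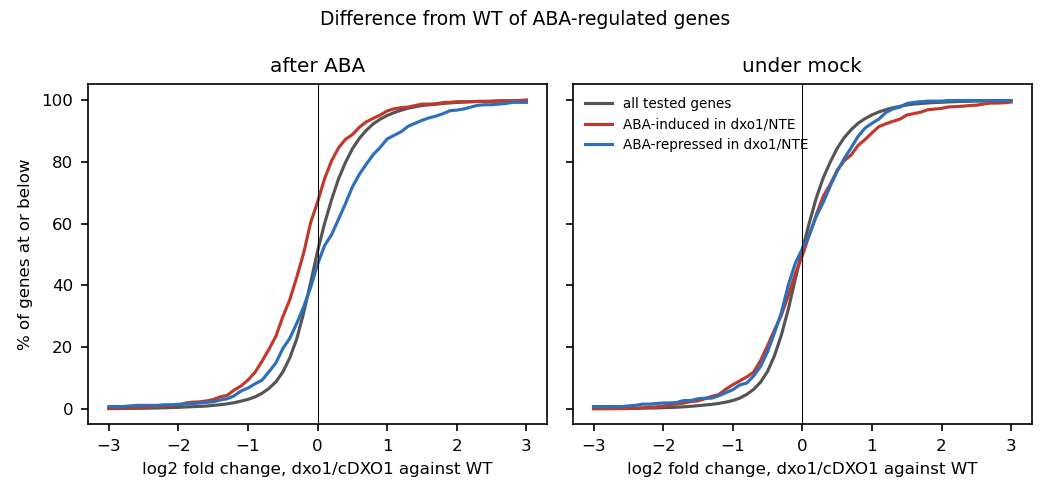
Cumulative share of genes (y axis, %) at or below each log2 fold change of *dxo1*/*cDXO1* against WT (x axis), after ABA on the left and under mock on the right, for all tested genes (grey) and for genes that ABA induced (red) or repressed (blue) in *dxo1*/*NTE*. After ABA the induced genes lie to the left of all genes (median -0.21) and the repressed genes spread wider than all genes on both sides, with 6.78% against 3.10% at or below -1 and 87.4% against 95.0% at or below 1, while under mock the medians are 0.01 (induced), -0.02 (repressed) and -0.02 (all).

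The core of the ABA-responsive element was found in the upstream windows of many of these genes. Windows of 250 bases before the annotated gene start were read from the TAIR10.1 genome of RefSeq and searched on both strands for ACGTG. It was present in 24.0% of the windows of all tested genes, in 32.6% of genes over 2-fold lower, in 26.1% of genes over 2-fold higher and in 44.9% of the ABA-induced genes. Among the ABA-induced genes the share was 47.0% in those that fell, 45.1% in those that did not pass and 37.3% in those that rose. It was in 5 of 8 PP2C windows and in 2 of 9 receptor windows. A match is a description of the letters and not evidence of a bound site. The hexamer CACGTG, which contains it, was in 22.6% of the ABA-induced and 7.52% of all windows. Windows of 5 genes are shown, chosen among members that hold the core, because they stand for the groups described here: *RD20* and *PP2CA* for the ABA response, *ADH1* for fermentation, *DFR* for anthocyanin synthesis and *LHCB2.3* for the light-harvesting antenna, with capitals marking ACGTG on either strand (CACGT on the other strand, CACGTG where both coincide).
RD20: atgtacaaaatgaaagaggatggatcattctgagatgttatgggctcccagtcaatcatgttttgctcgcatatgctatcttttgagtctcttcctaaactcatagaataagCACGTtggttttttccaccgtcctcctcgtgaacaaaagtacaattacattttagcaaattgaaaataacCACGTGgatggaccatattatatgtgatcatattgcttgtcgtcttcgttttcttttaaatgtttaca
PP2CA: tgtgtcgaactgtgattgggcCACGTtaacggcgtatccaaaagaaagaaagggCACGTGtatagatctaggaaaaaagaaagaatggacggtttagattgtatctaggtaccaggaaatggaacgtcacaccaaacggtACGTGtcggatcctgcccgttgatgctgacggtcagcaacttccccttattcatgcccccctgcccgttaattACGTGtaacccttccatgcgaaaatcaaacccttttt
ADH1: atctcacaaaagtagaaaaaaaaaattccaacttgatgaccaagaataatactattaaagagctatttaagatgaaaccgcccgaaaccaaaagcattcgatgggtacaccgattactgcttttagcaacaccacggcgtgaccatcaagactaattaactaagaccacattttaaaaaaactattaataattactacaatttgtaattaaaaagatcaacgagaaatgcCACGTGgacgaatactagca
DFR: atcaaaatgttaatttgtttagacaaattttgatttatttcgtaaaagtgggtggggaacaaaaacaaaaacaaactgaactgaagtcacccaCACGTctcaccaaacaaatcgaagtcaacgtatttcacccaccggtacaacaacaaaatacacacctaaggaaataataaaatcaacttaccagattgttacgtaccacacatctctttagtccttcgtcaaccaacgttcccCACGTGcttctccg
LHCB2.3: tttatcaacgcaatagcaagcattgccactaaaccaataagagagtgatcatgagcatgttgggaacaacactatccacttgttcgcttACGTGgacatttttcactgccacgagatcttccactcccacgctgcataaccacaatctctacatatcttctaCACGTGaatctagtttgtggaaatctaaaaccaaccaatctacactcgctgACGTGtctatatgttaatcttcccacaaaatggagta
The windows are RD20 chr2:14146556-14146805 (minus strand), PP2CA chr3:3585851-3586100 (minus), ADH1 chr1:28975005-28975254 (plus), DFR chr5:17166033-17166282 (minus) and LHCB2.3 chr3:10255656-10255905 (plus), and none overlaps another annotated gene. Matches over both strands numbered 3, 5, 2, 3 and 4, a palindromic CACGTG counting on each strand. Of these genes *RD20*, *PP2CA* and *ADH1* fell and *DFR* and *LHCB2.3* rose in *dxo1*/*cDXO1*.

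The largest increases were in genes that were almost off in WT. Among the 12 genes with the largest rise were *MIR158a*, AT3G06145, AT5G53230, AT5G55270, AT4G24700 and AT1G70985. The precursor of miR158a (AT3G10745) had no count in any WT library and was at 2.08, 1.76 and 2.43 CPM in *dxo1*/*cDXO1*, at least 13.6-fold higher against a floor of 3 counts per library. This poly(A) library measures the precursor transcript, not the mature RNA. Its mature sequences, shown to identify the locus, are given with the seed (bases 2 to 8) in capitals.
ath-miR158a-3p: uCCCAAAUguagacaaagca
ath-miR158a-5p: cUUUGUCUacaauuuuggaaa
They lie at chr3:3366349-3366368 and chr3:3366391-3366411 on the minus strand (RefSeq, TAIR10.1). AT3G06145, for a RING zinc finger protein, stood at 1.34, 1.01 and 1.09 CPM in WT and 39.2, 35.2 and 35.9 CPM in *dxo1*/*cDXO1*, 5.01 ± 0.13 on the log2 scale (edgeR, adjusted p = 7.48e-11), with all *dxo1*/*cDXO1* libraries far above all WT libraries. *NAC085*, a drought-related NAC factor, had 2 counts over the WT libraries and 129 over the *dxo1*/*cDXO1* libraries (ratio 65.1, exact binomial 95% interval 17.7 to 543), and *TIF3C2*, for a subunit of initiation factor 3, had 7 against 128 (ratio 18.5, 8.70 to 46.8). *CIPK20*, a kinase of the calcium sensor network, was at 3.48, 1.06 and 1.73 CPM in WT and 36.2, 29.4 and 26.1 CPM in *dxo1*/*cDXO1* (3.89 ± 0.25, edgeR adjusted p = 6.22e-08). The 2 DUF295 genes AT5G53230 and AT5G55270 rose by 5.01 ± 0.34 and 4.93 ± 0.40.

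Enzymes of flavonoid and anthocyanin synthesis rose throughout the pathway. Of 18 tested genes 15 rose, 10 of them over 2-fold, none fell, and the median log2 fold change was 1.14. *DFR* (AT5G42800), which commits dihydroflavonols to anthocyanins, stood at 5.14, 4.33 and 4.89 CPM in WT and 76.8, 66.9 and 55.8 CPM in *dxo1*/*cDXO1*. *LDOX* (AT4G22880), the next enzyme, was at 3.80, 3.12 and 2.18 CPM in WT and 22.9, 17.5 and 12.4 CPM in *dxo1*/*cDXO1*. Groups were apart in every library, with log2 fold changes of 3.80 ± 0.13 and 2.55 ± 0.23 (edgeR, adjusted p = 3.37e-10 and 1.53e-06). At the start of the pathway *PAL2* rose by 1.79 and *TT4* (chalcone synthase) by 1.93, and at its end the decorating enzymes *5MAT*, *UGT78D2* and *UGT75C1* rose by 1.84, 1.60 and 1.52 and the vacuolar carrier *GSTF12* (*TT19*) by 1.25. *TT5* (-0.06), *PAL1* (0.06) and *4CL3* (0.32) did not pass. Of 10 tested regulators 2 rose, *TT8* (1.39 ± 0.22) and the repressor *MYBL2* (1.42 ± 0.23), and the activator *PAP1* (-0.11) did not pass. Under mock 13 of the 18 enzymes were higher too, where 12.1% of all genes were. Without WT mock replicate 1 it was 14 of 18, where 4180 of 20243 genes were higher. Glutathione S-transferases of the tau and phi classes went both ways, with 11 of 34 higher and 7 lower, *GSTU27* rising by 1.51 ± 0.10 and *GSTU4* falling by 1.59.

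Genes of the photosynthetic antenna and both photosystems were higher in *dxo1*/*cDXO1*. Of 42 tested members 31 rose, 11 of them over 2-fold, and none fell, with a median log2 fold change of 0.62. *LHCB2.3* (AT3G27690), an antenna protein of photosystem II, stood at 16.8, 3.78 and 4.00 CPM in WT and 101, 89.8 and 71.5 CPM in *dxo1*/*cDXO1*. Its paralog *LHCB2.2* was at 126, 53.3 and 47.2 CPM in WT and 709, 574 and 445 CPM in *dxo1*/*cDXO1*, and the 2 genes share sequence, so reads may be split between them. WT replicate 1 was the highest WT library in both and still lay below every *dxo1*/*cDXO1* library, with log2 fold changes of 3.44 ± 0.36 and 2.94 ± 0.29 (edgeR, adjusted p = 5.59e-06 and 3.39e-06). *LHB1B1* rose by 2.17, *LHCB4.2* by 1.97, *LHCB3* by 1.94 and *CAB2* by 1.92. Among photosystem I subunits *PSAD-2* rose by 1.51, *PSAO* by 0.78 and *PSAF* by 0.61, and *CAB1*, the most abundant antenna gene, did not pass (0.21). Without WT replicate 1, 39 of 42 members rose. Under mock 12 of 42 were higher and none lower, or 19 and 4 without WT mock replicate 1. The summed level of 13 markers of photosynthetic shoot tissue, 4 of them antenna genes, was 27736 to 35966 CPM in WT and 45211 to 48003 CPM in *dxo1*/*cDXO1*, and 10 of the 13 rose. The sums of 18 root markers were 237 to 248 and 254 to 262 CPM, those of 8 guard cell markers 65.5 to 74.8 and 65.9 to 72.0 CPM, and those of 8 flower and pollen markers 5.44 to 7.28 and 4.76 to 7.05 CPM, with *VGD1* and *PPME1* at 0. Of the 18 root markers 6 rose and 3 fell. Of the 8 guard cell markers 1 rose and 3 fell, with a median log2 fold change of -0.43. The part of all these markers in the antenna result was not tested.

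Chlorophyll synthesis followed the antenna, with 9 of 15 tested genes higher and none lower. *CRD1* (AT3G56940), a subunit of the cyclase that closes the fifth ring, stood at 512, 357 and 370.4 CPM in WT and 1956, 1811 and 1843 CPM in *dxo1*/*cDXO1*, without overlap (2.19 ± 0.12, edgeR adjusted p = 1.59e-08). *HEMA1*, at the entry of tetrapyrrole synthesis, rose by 1.07 ± 0.11, and *CAO*, *CHLH* and *PORC* by 0.97, 0.82 and 0.67. Of 29 genes of light signalling and the clock 13 rose and 6 fell (3 fell without WT replicate 3 or without *dxo1*/*cDXO1* replicate 1). *BBX16* (AT1G73870), a B-box factor, was at 0.482, 0.302 and 0.396 CPM in WT and 5.27, 4.54 and 3.85 CPM in *dxo1*/*cDXO1* (3.53 ± 0.30, edgeR adjusted p = 8.28e-07). *ELIP2*, an early light-induced protein, rose by 1.98 ± 0.22, the morning clock gene *PRR9* by 1.73, *PRR7* by 1.24, *PIF4* by 1.2 and *PIF5* by 1.16. The evening genes *TOC1* and *ELF4* fell by 0.33 and 0.52, while *GI* rose by 0.98, and *CCA1* (0.29), *LHY* (0.26) and *HY5* (0.19) did not pass. The labels do not give the hour of harvest.

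Genes that darkness and sugar starvation induce were lower. Of 14 tested members 9 fell and none rose (median log2 fold change -0.59), and 9 of 13 were lower under mock. Without WT mock replicate 1, 11 of 13 were lower and 1 higher under mock. *DIN11* (AT3G49620), a dark-induced dioxygenase, stood at 50.7, 21.5 and 25.4 CPM in WT and 2.89, 3.15 and 2.23 CPM in *dxo1*/*cDXO1*. *BCAT-2* (AT1G10070), which degrades branched-chain amino acids, was at 21.5, 9.77 and 12.9 CPM in WT and 2.03, 2.19 and 1.77 CPM in *dxo1*/*cDXO1*. Both were highest in WT replicate 1, and all WT libraries lay above all *dxo1*/*cDXO1* libraries (-3.55 ± 0.31 and -2.87 ± 0.27, edgeR adjusted p = 8.65e-07 and 2.21e-06). *ASN1*, the asparagine synthetase induced in the dark, was at 82.2, 11.99 and 24.0 CPM in WT and 9.01, 7.37 and 4.00 CPM in *dxo1*/*cDXO1*. WT replicate 1 lay far above the other WT libraries, and the groups did not overlap (-2.52 ± 0.54, edgeR adjusted p = 0.00194). *SEN1* fell by 2.24, *GPT2* and *STP1* by 0.87 each, and *SWEET12* (0.00) and *DIN10* (-0.01) did not pass. Without WT replicate 1 also 9 members fell, and 1 rose.

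Hypoxia and fermentation genes were lower as well. Of 16 tested members 8 fell, 5 over 2-fold, and none rose, with 11 falling under library totals and 5 with all 30 libraries in 1 fit. *ADH1* (AT1G77120), alcohol dehydrogenase, stood at 207, 781 and 570.4 CPM in WT and 53.6, 57.4 and 65.3 CPM in *dxo1*/*cDXO1*. *HB1* (AT2G16060), the non-symbiotic haemoglobin, was at 86.9, 167 and 136 CPM in WT and 16.5, 24.0 and 20.7 CPM in *dxo1*/*cDXO1*. Here WT replicate 1 was the lowest WT library, and still above every *dxo1*/*cDXO1* library, with log2 fold changes of -3.14 ± 0.34 and -2.66 ± 0.20 (edgeR, adjusted p = 6.19e-06 and 2.11e-07). Pyruvate decarboxylase *PDC1* fell by 1.61, the plant cysteine oxidase *PCO1*, which marks the response factors for degradation, by 1.3 and *RAP2.3*, 1 of those factors, by 1.24. The hypoxia-induced factors *HRE1* (*ERF73*, 0.41) and *HRE2* (*ERF71*, -0.03) did not pass. Among the 12 largest falls was *FTM1*, for a stearoyl desaturase, at 47.7, 182 and 117 CPM in WT and 9.72, 13.3 and 13.4 CPM in *dxo1*/*cDXO1*. Another was AT4G27450, for an aluminium-induced protein, at 49.4, 88.9 and 72.9 CPM in WT and 5.42, 4.48 and 4.11 CPM in *dxo1*/*cDXO1*. The spread of *FTM1* across WT libraries was wide, and no WT library of either gene reached down to a *dxo1*/*cDXO1* library. Under mock 9 of the 16 hypoxia genes were lower. Without WT mock replicate 1 it was 16 of 17, where 3940 of 20243 genes were lower. Seedlings of all groups, WT included, had been kept in liquid medium, and the part of the medium in the hypoxia result was not tested.

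**Figure D4:**
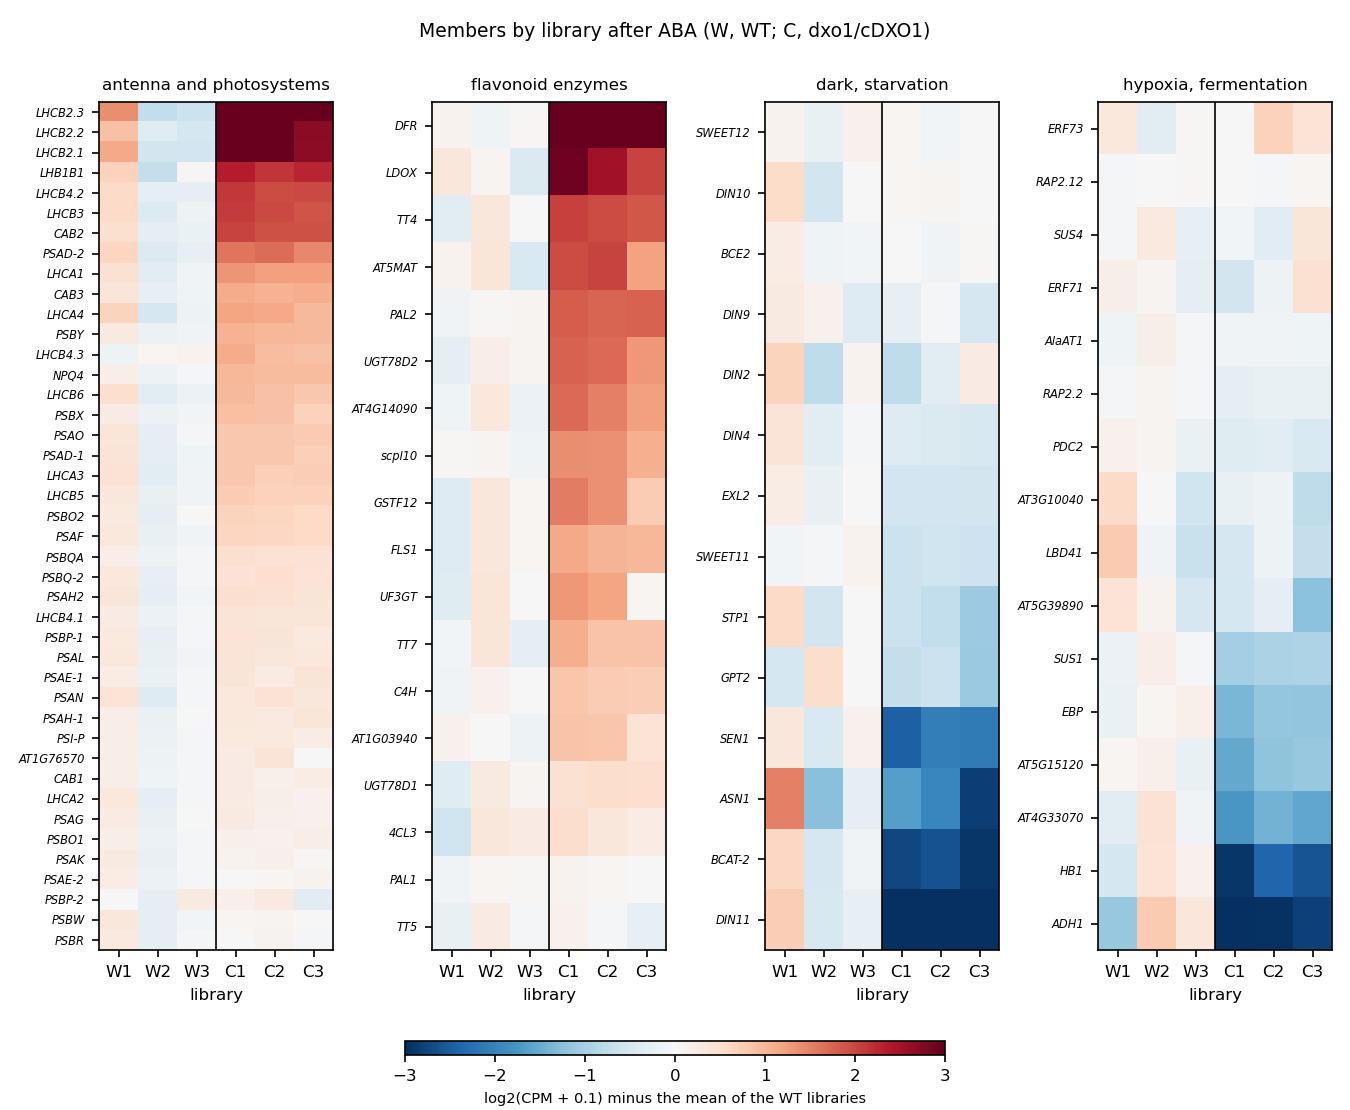
Log2(CPM + 0.1) of each member in each library minus the mean of the WT libraries (colour scale from -3 to 3), for 3 WT libraries (W) and 3 *dxo1*/*cDXO1* libraries (C) after ABA, with members sorted by their mean difference. Antenna and flavonoid genes are higher in *dxo1*/*cDXO1* and dark and hypoxia genes lower, and WT replicate 1 (W1) departs from W2 and W3 upward in the antenna and dark panels and downward for *ADH1* and *HB1*.

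Genes of plant defensins were among the 12 largest falls. *PDF1.3* (AT2G26010) had 561 counts over the WT libraries and 3 over the *dxo1*/*cDXO1* libraries, a ratio of scaled counts of 185 (exact binomial 95% interval 63.1 to 901). *PDF1.2c* had 234 against 3 (ratio 77.3, 26.1 to 377) and *PDF1.2b* 178 against 4 (ratio 44.1, 16.9 to 164). *PDF1.2*, the common marker of jasmonate and ethylene defence, was at 7.06, 3.53 and 5.73 CPM in WT and 0.101, 0.160 and 0.355 CPM in *dxo1*/*cDXO1* (-4.67 ± 0.42, edgeR adjusted p = 1.33e-06). These 4 defensin genes are close to identical in sequence, so counts may be split among them, but all 4 were lower in all *dxo1*/*cDXO1* libraries. Of 26 genes in the defence list 8 fell and 6 rose. *PR4* fell by 1.17 and *PR3* by 1.00, while the salicylic acid marker *PR1* (-0.96) did not pass. In the other direction *PAD3* (AT3G26830), the last enzyme of camalexin synthesis, stood at 9.26, 12.3 and 7.71 CPM in WT and 26.8, 23.8 and 26.5 CPM in *dxo1*/*cDXO1* (1.41 ± 0.14, edgeR adjusted p = 2.85e-06), and *PAD4*, a lipase-like defence regulator, rose by 1.11 ± 0.15.

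Of 21 tested jasmonate genes 9 fell and 1 rose. The vegetative storage proteins *VSP2* and *VSP1*, both jasmonate markers, were both low. *VSP2* was at 9.68, 7.46 and 5.54 CPM in WT and 2.68, 2.19 and 1.77 CPM in *dxo1*/*cDXO1*. *VSP1* was at 10.01, 7.20 and 6.58 CPM in WT and 2.99, 3.31 and 2.53 CPM in *dxo1*/*cDXO1*. Neither overlapped (-1.76 ± 0.24 and -1.42 ± 0.20, edgeR adjusted p = 4.97e-05 and 7.75e-05). The synthesis genes *LOX2*, *AOC1* and *AOC2* fell by 1.34, 0.73 and 0.64 and the receptor *COI1* by 0.31, while *AOS*, in the same pathway, had overlapping groups and rose by 0.46 ± 0.16, a call lost in 7 of the alternative settings. Also among the 12 largest falls were *NATA1*, an acetyltransferase induced by jasmonate, with a log2 fold change of -4.38 ± 0.54, the defence-related alcohol dehydrogenase *ELI3-2* (-3.94 ± 0.38) and *BAM5*, a beta-amylase of the phloem (-3.70 ± 0.44). Of the touch and handling genes, 4 of 13 rose, among them the calmodulin-like *TCH3* (0.80 ± 0.17), and 3 fell, among them the zinc finger gene *ZAT6* (-1.03 ± 0.09). Heat shock genes were called in 3 of 11 cases, 2 higher and 1 lower, and the *HSP101* call was lost in 8 of the alternative settings. Xyloglucan hydrolases and expansins went both ways, with 11 of 44 higher and 8 lower, a balance that library totals turned to 7 and 15.

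Ribosomal proteins rose by small steps in large number. Of 260 tested genes 176 rose and 6 fell, with a median log2 fold change of 0.34, and 17 rose over 2-fold. Under mock 99 of 259 were higher and 1 lower (178 and 7 of 260 without WT mock replicate 1). Counts of this group depended on the scaling, 131 rising and 13 falling with library totals. The top of the list was unstable: AT1G58684, of a multi-copy S5 family, stood at 0.963, 1.71 and 1.29 CPM in WT and 5.82, 0.907 and 47.7 CPM in *dxo1*/*cDXO1*, so the groups overlapped and its call was lost without *dxo1*/*cDXO1* replicate 3. The site II element TGGGCC, a motif of ribosomal promoters, was in 47.3% of the 260 windows and in 51.1% of the 176 that rose, against 16.3% of all tested genes, and the telo box AAACCCTA in 13.1% against 3.59%. Both were searched on both strands of the same 250-base windows. The share with TGGGCC was 7.68% in genes over 2-fold lower.

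**Figure D5:**
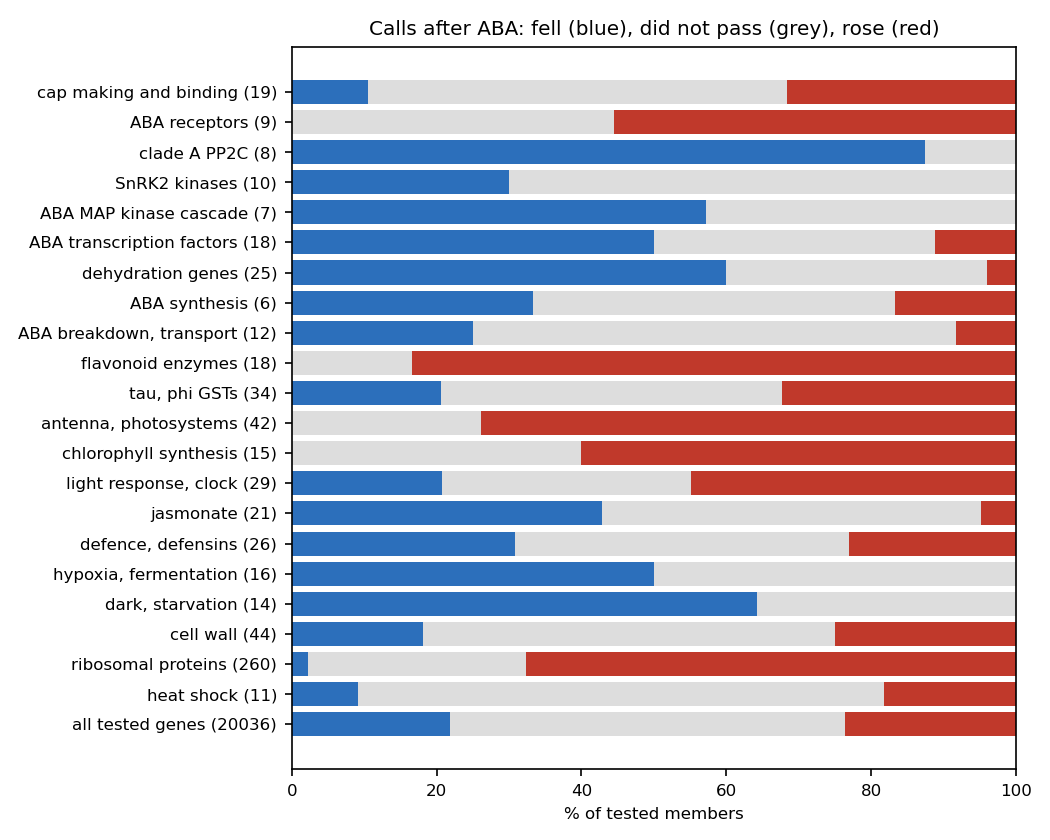
Share of tested members (x axis, %) of each gene group that fell (blue), did not pass (grey) or rose (red) in *dxo1*/*cDXO1* against WT after ABA, with the number tested in brackets and all 20036 tested genes at the bottom. Clade A PP2C genes show the largest share that fell and flavonoid enzymes the largest share that rose.

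A test of the interaction asked which genes differed from WT by another amount after ABA than under mock. Of 20589 tested genes 48 (0.233%) passed, 18 upward (0.0874%) and 30 downward (0.146%), and without WT mock replicate 1 they were 125 and 211. The 4 receptors above were among the 48. In simulated counts this test recovered 5 of 67 changes of 0.5 on the log2 scale, 32 of 67 of 1 and 59 of 66 of 2. A gene that did not pass may therefore still differ between ABA and mock. *ACL* (AT2G23600), an acetone-cyanohydrin lyase, stood at 27.4, 28.8 and 29.0 CPM in WT and 92.5, 86.0 and 80.0 CPM in *dxo1*/*cDXO1* after ABA. The groups did not overlap (1.61 ± 0.07), against 0.32 ± 0.10 under mock (interaction 1.26 ± 0.12, edgeR adjusted p = 0.000342). *ABCG16*, a transporter of the ABCG class, turned from higher under mock (0.93 ± 0.19) to lower after ABA (-0.94 ± 0.11), as did *WRKY11* (0.44 ± 0.11 and -0.53 ± 0.08). AT2G47780, a rubber elongation factor protein of lipid droplets, differed by 3.08 ± 0.39 under mock and by 0.19 ± 0.07 after ABA. Its call after ABA was lost in all 13 refits of that contrast. The aquaporin *PIP1;4* was higher under both, by 1.56 ± 0.12 and 0.51 ± 0.07.

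Set against its parent mutant after ABA, *dxo1*/*cDXO1* differed far less. Of 20039 tested genes 789 (3.94%) were higher and 433 (2.16%) lower than in *dxo1* (6.1% in either direction), with 18 (0.0898%) and 80 (0.399%) over 2-fold, together 0.489%. These counts use the same 3 *dxo1*/*cDXO1* libraries as the comparison with WT, so the contrasts are not independent. With library totals they were 427 and 894. Median log2 differences were 0.03 over 8 PP2C, 0.06 over 10 *SnRK2*, -0.07 over 7 kinase cascade and 0.01 over 21 jasmonate genes. Other groups kept a difference from *dxo1*. Of 16 hypoxia genes 4 were lower and none higher (median -0.21), and of 13 dark genes 3 were lower and none higher (-0.12). Of 260 ribosomal protein genes 32 were higher and none lower (0.04). *PYR1* was 0.28 ± 0.05 (edgeR, adjusted p = 0.00148). *PYL4* was -0.41 ± 0.11 (0.0368), a call lost with DESeq2, without *dxo1* replicate 1 or 2 and without any single *dxo1*/*cDXO1* library.

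Antenna and photosystem genes were higher than in the parent mutant. Of 42 tested members 40 were higher in *dxo1*/*cDXO1* than in *dxo1* after ABA and none lower, with a median log2 fold change of 0.39, against 3.94% of all genes higher. The count was 40 with library totals, 38 with DESeq2 and 37 to 40 with any 1 library left out. *LHB1B1*, an antenna gene, stood at 1174 ± 84.2 CPM in *dxo1*/*cDXO1*, 752 ± 34.9 in *dxo1* and 263 ± 122 in WT (0.64 ± 0.05 against *dxo1*, edgeR adjusted p = 1.5e-07). *CAB1*, which did not differ from WT beyond the test, was at 8945 ± 294 CPM, against 6849 ± 155 in *dxo1* and 7765 ± 928 in WT (0.38 ± 0.04, edgeR adjusted p = 3.03e-06). The mutant thus lay between WT and *dxo1*/*cDXO1* for *LHB1B1* and below both for *CAB1*. Of 15 chlorophyll genes 8 were higher than in *dxo1* (5 with library totals, 4 to 10 with 1 library left out), and *CRD1* was at 1870.2 ± 76.4 against 1377 ± 84.1 CPM (0.44 ± 0.05). The shoot markers summed to 36335 to 38555 CPM in *dxo1*, between the ranges of WT and *dxo1*/*cDXO1*, and their part in this result was not tested.

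*DYL1* (AT1G28330), a dormancy-associated gene, stood at 218, 123.3 and 179.7 CPM in WT and 88.1, 91.2 and 90.8 CPM in *dxo1*/*cDXO1* and at 10.3 ± 3.09 CPM in *dxo1* (3.13 ± 0.11, edgeR adjusted p = 4.69e-13). WT was thus highest, the line intermediate and the parent lowest. AT1G64795, an uncharacterized gene, had no count in any of the 6 libraries but 3.58 ± 0.737 CPM in *dxo1* (edgeR, adjusted p = 4.74e-07). AT3G06355, a non-coding RNA, was higher than in both *dxo1* (1.61 ± 0.07) and WT (1.16 ± 0.09), and AT3G05945, another non-coding RNA, lower than in both (-1.63 ± 0.13 and -1.85 ± 0.14). Of 25 dehydration genes 9 were higher than in *dxo1* and 1 lower, *RD20* (-0.68 ± 0.17, edgeR adjusted p = 0.0215), the counts being 4 and 1 with library totals or without *dxo1*/*cDXO1* replicate 2, and 5 and 1 without *dxo1* replicate 1. The *RD20* call was lost without *dxo1* replicate 2 or 3 and without *dxo1*/*cDXO1* replicate 1 or 3. Among the defence genes 2 of 22 were higher and 9 lower, which became 0 to 1 higher and 5 to 8 lower with 1 library left out, the fewest lower without *dxo1*/*cDXO1* replicate 1 or 2.

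Against *rnmt1‐3* after ABA, 2665 (13.3%) of 20037 genes were higher in *dxo1*/*cDXO1* and 2514 (12.5%) lower, again with the same *dxo1*/*cDXO1* libraries. *RD20* was lower than in *rnmt1‐3* (-1.87 ± 0.19, at 19.5 ± 6.52 CPM there), and of 25 dehydration genes 13 were lower and 2 higher. Of 8 PP2C genes 5 were lower and none higher, and of 9 receptors 3 were higher and 1 lower, *PYR1* at 0.69 ± 0.06 and *PYL4* at 0.54 ± 0.13. *DIN11* was -3.64 ± 0.17 and *ADH1* -1.08 ± 0.13, with 8 of 14 dark genes and 10 of 16 hypoxia genes lower. Of 42 antenna genes 18 were higher and 2 lower, and of 15 chlorophyll genes 12 were higher and none lower. Ribosomal proteins split evenly, 36 higher and 35 lower of 260.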

How the data were processed

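Poly(A) RNA-seq libraries of whole seedlings were analysed, 3 per group. The deposited values were raw read counts per gene, which the authors obtained by checking reads with FastQC 0.11.8, aligning them to TAIR10 with HISAT2 2.2.1 and counting with featureCounts of Subread 2.0.8. The strand setting and the treatment of multi-mapped reads are not given in the sources used here, so paralogs, overlapping genes and antisense genes may share reads. Of 32833 counted genes, 32548 were found in the RefSeq TAIR10.1 annotation, and 99.5% of those had the same length, so its coordinates were used. No count column was left unmapped (0).

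Counts were tested with edgeR 4.0.16 (R 4.3.3, limma 3.58.1): filterByExpr (minimum count 10, total 15), TMM scaling and the quasi-likelihood test, with p-values adjusted by Benjamini-Hochberg. Each contrast was fitted on the 6 libraries of its 2 groups and the interaction on 12. SE was the log2 fold change divided by the root of F. Ratios at low counts used exact binomial 95% intervals. Code was tested on simulated data. The members and gene lists were chosen with earlier results of these data known, and 5 genes that a name pattern had caught wrongly were removed from lists. Named by rule were *DXO1* and *RNMT1*, the 12 called genes with the largest change in each direction without overlap and at a mean of at least 1 CPM, the 2 called members of each list with the largest change in each direction, the ABA genes the study discusses, and the 4 genes in each direction with the smallest p in the interaction and against *dxo1*. Other list members and the neighbours of *DXO1* were chosen after their values were seen. Alternatives were DESeq2 1.42.0, RLE scaling, no filter, the replicate number as a block, fits over more libraries, other thresholds and each library left out, and scaling by library totals was added after seeing the data. Deviations of replicates with the same number correlated at r of 0.09, 0.03 and 0.05 between WT and *dxo1*/*cDXO1*, below the minimum of 0.1 set for pairing, so the samples were not treated as paired.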

Additional observations from a re-analysis of the deposited data

Results flagged for a closer look

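For 12 named genes the difference between *dxo1*/*cDXO1* and WT after ABA was not the same as under mock, by the interaction test over 12 libraries (edgeR, adjusted p below 0.05). Log2 fold changes are given after ABA and under mock, followed by their fitted difference.

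The receptor genes led toward a larger difference after ABA. *PYL6* differed by 3.68 and -0.02 (difference 3.67, edgeR adjusted p = 0.00103), *PYR1* by 1.56 and 0.37 (1.16, 0.00761), *PYL4* by 1.90 and 0.79 (1.08, 0.0276) and *PYL5* by 1.25 and 0.17 (1.06, 0.00789). Also higher by more after ABA were AT4G21870, for an HSP20-like chaperone, with 1.71 and -0.20 (1.88, 0.00761), AT3G06145, for a RING zinc finger protein, with 5.01 and 3.32 (1.66, 0.0137, rising to as much as 0.0737 without WT replicate 2 or 3 after ABA), AT1G75960, for an AMP-dependent ligase, with 2.18 and 0.55 (1.60, 0.0053) and *ACL* with 1.61 and 0.32 (1.26, 0.000342).

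In the other direction AT2G47780 differed by 0.19 after ABA and 3.08 under mock (difference -2.92, edgeR adjusted p = 0.000211), *ABCG16* by -0.94 and 0.93 (-1.89, 0.00103), the aquaporin *PIP1;4* by 0.51 and 1.56 (-1.08, 0.0053) and *WRKY11* by -0.53 and 0.44 (-0.99, 0.00644).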

How the results depend on the processing

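With a 2-fold minimum the counts of *dxo1*/*cDXO1* against WT after ABA were 967 higher and 587 lower, and 991 and 611 with an unadjusted p (edgeR). Leaving out 1 library gave 3976 to 4851 higher and 3432 to 4373 lower. The interaction counts were 10 to 125 and 13 to 211, highest without WT mock replicate 1, and 78 and 124 with DESeq2. Against *dxo1* they were 476 to 756 and 238 to 360, lowest without *dxo1*/*cDXO1* replicate 2, and 427 and 894 with library totals. Against *rnmt1‐3* they were 2057 to 2427 and 1914 to 2268. The median of the ABA-induced genes was -0.23 to -0.19 with 1 library left out, -0.25 with the list taken from *rnmt1‐3* and -0.32 with library totals. The median of the repressed genes was 0.0389 to 0.0811, -0.0148 and -0.0686, so its sign turned under the last 2. The causes were not tested.

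With the replicate number as a block the counts were 4862 and 4486 against WT, 18 and 23 for the interaction, 1194 and 717 against *dxo1* and 3024 and 2946 against *rnmt1‐3*. The numbers share no stated batch, and every library correlated best with its own number, a hint from the data and not from the design.

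Named genes gave 141 results, each refitted under the alternative settings, 1865 refits in all. Of these refits 1772 kept the side of the threshold, and the direction where called, 82 lost the call, 11 gained it and 0 reversed. Depth limits genes with few counts, such as *PYL6*, *SESA2* and the defensins.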
